A study of Mus musculus with 4 samples.

Results

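Transcripts of myeloid cells were followed in RNA-seq libraries of γδ T cells sorted from mouse lung. The members were 10 genes chosen by symbol, Cd14, Mrc1, Marco, Lyz2, Apoe, Ctss, Cd68, Csf1r, Fcer1g and Tyrobp, of 22865 symbols in the count table, and all 10 had a row. The libraries came from female C57BL/6 mice, 10 weeks old, of the genotypes Aire-/- and Aire+/+, with 2 libraries of each. Aire is the regulator that lets thymic epithelial cells display tissue proteins to developing T cells, and the labels do not describe the mutant allele. The input to each Smart-Seq2 library, which amplifies whole transcripts from little RNA, was 500 sorted lung cells positive for CD45 and TCRγδ and negative for TCRβ, CD27, Vγ1, Vγ2, Vγ4 and Vγ5. Whether replicates are separate animals is not stated, so each p-value reflects variation among these 4 preparations alone, possibly technical. In bulk libraries such as these, fewer cells of a type and less RNA per cell cannot be told apart.

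Macrophages and monocytes carry receptors that recognise microbial and dying material, take it up and break it down in lysosomes. CD14 hands lipopolysaccharide to the TLR4 and MD-2 complex, the mannose receptor (Mrc1) and MARCO bind glycans and particles, and lysozyme M (Lyz2) cleaves bacterial cell walls. The CSF1 receptor (Csf1r) maintains the lineage, while the adaptors FcRγ (Fcer1g) and DAP12 (Tyrobp) give Fc receptors and other immune receptors their signalling tails. In the lung these genes are known from alveolar and interstitial macrophages. Several are not restricted to them: cathepsin S (Ctss) also processes the class II chaperone in B cells, and both adaptors are used by natural killer cells.

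Depth was similar, at 1144060 and 1106891 total counts for Aire-/-, against 1265239 and 1153344 for Aire+/+. Aire had 0 counts in all 4, so the targeted gene checked no genotype label. Replicates did not hold copied counts (chi-square over its degrees of freedom 4.10 for Aire-/- and 4.00 for Aire+/+), but reads copied by PCR are not independent, and this does not show that they are separate samples. The γδ T17 markers were abundant in all 4 libraries, at a summed 6844 and 7594 CPM (counts per 1000000 counts of scaled library size) in the Aire-/- libraries, against 4637 and 6451 CPM in the Aire+/+ libraries. Of these 12 markers, 12 had a fitted fold change above 0, 8 were higher in both Aire-/- than in both Aire+/+ libraries, where 17.1% of tested genes were, and 0 were called. B cell markers, which the gate was meant to leave out, summed to 2660 and 1918 CPM in the Aire-/- libraries, against 3915 and 2526 CPM in the Aire+/+ libraries.

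The 10 myeloid transcripts together took a very small share of the reads. They had 386 and 468 counts in the Aire-/- libraries, against 1113 and 519 counts in the Aire+/+ libraries. That is 0.0337% and 0.0423% of all counts in Aire-/- and 0.0880% and 0.0450% in Aire+/+. Aire+/+ replicate 1 stood alone as the high library, while Aire+/+ replicate 2 lay beside Aire-/- replicate 2. Ctss and Apoe made up 95.9% and 74.1% of the member counts in the Aire-/- libraries, against 73.2% and 88.1% in the Aire+/+ libraries. The summed level was 397 ± 62.7 CPM for Aire-/- and 672 ± 322 CPM for Aire+/+ (SD, n = 2 each), a ratio of 0.59. Without Aire+/+ replicate 1 that ratio was 0.89. The difference between the genotypes was thus smaller than the SD within Aire+/+.

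**Figure D1:**
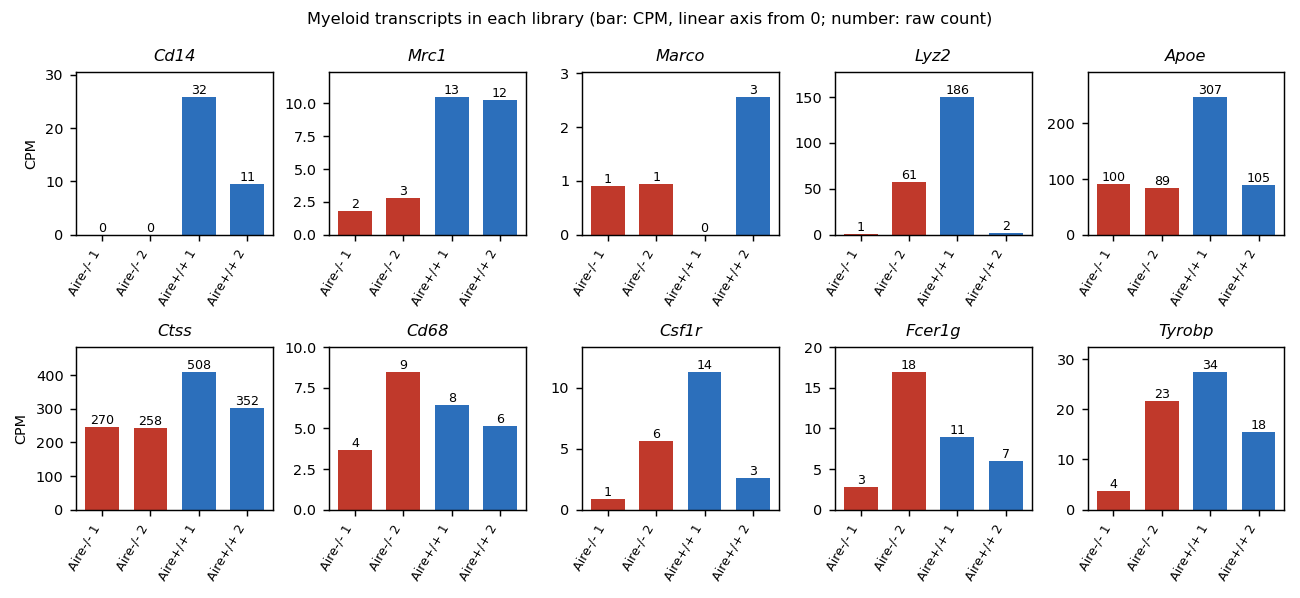
CPM (linear axes from 0, a separate scale for each gene) of the 10 myeloid transcripts in the Aire-/- libraries (red) and the Aire+/+ libraries (blue), with the raw count above each bar. Aire+/+ replicate 1 is the highest library for 7 genes and Aire-/- replicate 1 the lowest for 6.

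None of the 10 passed the test over all genes. With edgeR's quasi-likelihood test and Benjamini-Hochberg adjustment, 0 members were called at an adjusted p under 0.05, beside 0.0204% of the 9783 genes tested in the whole table. A total of 6 members entered the test, Cd14, Mrc1, Lyz2, Apoe, Ctss and Tyrobp, while Marco, Cd68, Csf1r and Fcer1g fell below the filter on low counts. Of those 6, 4 had an unadjusted p under 0.05, all lower in Aire-/-, where 2.77% of all genes did so in that direction and 2.8% in the other. Of these 4, Cd14 and Mrc1 passed the filter only through their counts in Aire+/+ libraries, which fixed their direction, so nothing is read from that comparison. DESeq2's Wald test and limma-voom also called 0 members. Without the filter Cd14 (adjusted p = 8.3e-05, edgeR) and Lyz2 (adjusted p = 0.047, edgeR) were called, both lower, where 0.127% of all genes were called lower and 0.103% higher. In that fit the approximate SE of the Lyz2 fold change was 0.36, against 1.15 in the filtered fit. Lyz2 replicates differed 63.0-fold within Aire-/- and 87.8-fold within Aire+/+, so its call does not reflect their spread. Fitted log2 fold changes (Aire-/- over Aire+/+) of the 6 all lay below 0, as did 49.1% of all tested genes, with a median of -1.17 against 0.01 over all genes tested, and the median is the same with Cd14 at its limit for a count of 0. Because Cd14 and Mrc1 entered only through their Aire+/+ counts, this count and median describe the 6 and support nothing about the 10. In CPM, both Aire-/- libraries lay below both Aire+/+ libraries for Cd14, Mrc1 and Ctss, 3 of the 10, where 17.3% of the tested genes did so, and the genotypes overlapped for the other 7.

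Among the members that are receptors for microbial and particulate material, Cd14 and Mrc1 separated the genotypes at low counts. Cd14 had 0 counts in both Aire-/- libraries, against 32 and 11 counts in the Aire+/+ libraries. The Aire+/+ counts are 25.9 and 9.41 CPM. With 3 counts allowed over the Aire-/- pair, a level of 1.39 CPM, Cd14 was at least 12.8-fold lower in Aire-/-, and it did not pass over all genes (adjusted p = 0.45, edgeR). Against Aire+/+ replicate 2 alone the limit was 6.76-fold, and against Aire+/+ replicate 1 alone 18.6-fold. It was called without Aire+/+ replicate 2 (adjusted p = 5.4e-04, edgeR), where the only replicated genotype had 0 counts in both libraries and 0.388% of all genes were called lower. It was not called without Aire+/+ replicate 1 (adjusted p = 0.93, edgeR), Aire-/- replicate 1 (0.48) or Aire-/- replicate 2 (0.86). Mrc1 had 2 and 3 counts in the Aire-/- libraries, against 13 and 12 counts in the Aire+/+ libraries. It averaged 2.33 ± 0.71 CPM in Aire-/- and 10.4 ± 0.17 CPM in Aire+/+ (SD, n = 2 each), with a log2 fold change of -2.11 (approximate SE 0.85, adjusted p = 0.89, edgeR). With single libraries left out, its fold change stayed between -2.44 and -1.84 and was not called. Marco had 1 and 1 counts in the Aire-/- libraries, against 0 and 3 counts in the Aire+/+ libraries, too few to order the libraries.

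Lysozyme divided the libraries across the genotypes rather than between them. Lyz2 had 1 and 61 counts in the Aire-/- libraries, against 186 and 2 counts in the Aire+/+ libraries. The 95% exact Poisson intervals, which cover counting error only, run from 0.0253 to 5.57 and from 46.7 to 78.4 counts in Aire-/- and from 160 to 215 and from 0.242 to 7.22 counts in Aire+/+. One library of each genotype therefore held Lyz2 and the other held nearly none. The fold between replicates was 63.0 within Aire-/- and 87.8 within Aire+/+, and 99.97% and 99.99% of tested genes differed less between the same libraries on the log2(CPM + 2) scale. Against that spread, the genotype means were 29.2 ± 40.03 CPM in Aire-/- and 76.0 ± 105 CPM in Aire+/+ (SD, n = 2 each), with a log2 fold change of -1.39 (approximate SE 1.15, adjusted p = 0.95, edgeR).

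The neighbouring lysozyme gene followed the same libraries. Lyz1, the lysozyme P gene, lies 5.48 kb from Lyz2 on chromosome 10 and on the same strand, Lyz2 at 117277331 to 117282321 and Lyz1 at 117287797 to 117292868 (GRCm38, GENCODE M21), both protein-coding. Lyz1 had 0 and 8 counts in the Aire-/- libraries, against 20 and 0 counts in the Aire+/+ libraries, and it fell below the filter. The longest transcripts of the pair share 96.0% of 1262 aligned bases, and 15.4% of the 50-base windows of Lyz2 occur unchanged in Lyz1. The counting of reads shared by similar genes is not given in the sources used here, so the split between the pair is uncertain. If each shared read was counted once, their sum does not depend on that split. The sum stood at 0.913 and 65.1 CPM in the Aire-/- libraries, against 166 and 1.71 CPM in the Aire+/+ libraries, and divided the libraries in the same way. The 250 bases upstream of the RefSeq transcription start are shown for the pair, because these neighbours were high in the same libraries, and for Mrc1, which followed another pattern. They are RefSeq sequences of GRCm38.p6, 5′ to 3′ along each gene, at chr10:117282273-117282522 (minus strand) for Lyz2, chr10:117292869-117293118 (minus strand) for Lyz1 and chr2:14229164-14229413 (plus strand) for Mrc1. RefSeq starts differ from those of GENCODE, and 49 bases of the Lyz2 window, 22 of the Mrc1 window and 0 of the Lyz1 window lie inside the gene as GENCODE gives it. Capitals mark AGGAAGT on either strand (ACTTCCT where it lies on the other strand), a core form of the sites bound by PU.1, the ETS factor of myeloid and B cells.
Lyz2: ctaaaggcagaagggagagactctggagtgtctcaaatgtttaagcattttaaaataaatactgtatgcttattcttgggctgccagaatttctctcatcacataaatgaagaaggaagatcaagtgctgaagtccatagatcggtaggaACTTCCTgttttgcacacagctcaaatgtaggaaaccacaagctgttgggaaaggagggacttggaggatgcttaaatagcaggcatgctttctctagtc
Lyz1: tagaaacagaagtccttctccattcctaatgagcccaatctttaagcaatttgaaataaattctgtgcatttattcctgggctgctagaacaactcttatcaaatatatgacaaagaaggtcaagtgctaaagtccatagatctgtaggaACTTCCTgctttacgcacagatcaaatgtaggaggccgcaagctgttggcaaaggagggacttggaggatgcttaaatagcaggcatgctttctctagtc
Mrc1: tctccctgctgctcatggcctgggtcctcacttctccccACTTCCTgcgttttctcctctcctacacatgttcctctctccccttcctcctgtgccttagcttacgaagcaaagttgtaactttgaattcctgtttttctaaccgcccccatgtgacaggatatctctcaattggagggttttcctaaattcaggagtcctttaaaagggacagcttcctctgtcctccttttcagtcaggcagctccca
The Lyz2 and Lyz1 stretches are identical at 200 of 248 aligned bases, and in both the motif begins 100 bases upstream of the RefSeq start. The motif was chosen after these sequences were seen. It was found in 2 of the 7 members with a sequence in the table, Lyz2 and Mrc1, and in 7.69% of all 32851 upstream windows of the same length, and a match is a description of letters only. Cd14, Csf1r and Tyrobp were the members without an entry. Spi1, which encodes PU.1, had 10 and 7 counts in the Aire-/- libraries, against 18 and 9 counts in the Aire+/+ libraries (log2 fold change -0.50, adjusted p = 0.98, edgeR).

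Apoe, which carries lipids between cells, was high in 1 library. It had 100 and 89 counts in the Aire-/- libraries, against 307 and 105 counts in the Aire+/+ libraries. In CPM the Aire-/- libraries stood at 91.3 and 83.9 and the Aire+/+ libraries at 248 and 89.8, so the Aire-/- values enclosed that of Aire+/+ replicate 2. The log2 fold change was -0.95 (approximate SE 0.37, adjusted p = 0.89, edgeR), and it was -0.05 without Aire+/+ replicate 1. Without Aire+/+ replicate 2 it was -1.502, in a fit that left 1 Aire+/+ library and so could not show the spread of that genotype.

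The lysosomal genes differed in abundance and in pattern. Ctss, the lysosomal protease of antigen-presenting cells, was the most abundant member per length, at 181 CPM per kb in Aire-/- and 263 CPM per kb in Aire+/+, followed by Apoe at 62.2 and 120, Lyz2 at 22.2 and 57.8 and Tyrobp at 21.2 and 35.9 CPM per kb in the same order. Ctss was first and Apoe second in all 4 libraries, while the place of Lyz2 varied. It stood at 0.694 and 43.7 CPM per kb in the Aire-/- libraries, against 114 and 1.30 CPM per kb in the Aire+/+ libraries. In Aire-/- replicate 1 and Aire+/+ replicate 2 it lay below Tyrobp, Fcer1g and Cd68. Ctss had 270 and 258 counts in the Aire-/- libraries, against 508 and 352 counts in the Aire+/+ libraries. Both Aire-/- libraries were the lower, averaging 245 ± 2.36 CPM, against 356 ± 77.3 CPM in Aire+/+ (SD, n = 2 each; log2 fold change -0.54, approximate SE 0.21, adjusted p = 0.89, edgeR). Cd68, a membrane glycoprotein of macrophage lysosomes, had 4 and 9 counts in the Aire-/- libraries, against 8 and 6 counts in the Aire+/+ libraries, and the genotypes overlapped.

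The direction for Ctss depended on the scale. Per 100 counts of 10 B cell markers, Ctss stood at 9.27 and 12.7 in the Aire-/- libraries, against 10.5 and 11.9 in the Aire+/+ libraries, so on this scale, chosen after the values were seen, the Aire+/+ libraries lay between the Aire-/- libraries. The ratio of Aire-/- to Aire+/+ was 0.98 per B cell marker count and 0.69 in CPM. Per count of the CD3 chains it was 0.56, both Aire-/- libraries being lower, and per count of 4 class II genes it was 1.20, both Aire-/- libraries being higher. For Apoe the ratio was 0.79 per B cell marker count, 0.40 per CD3 chain count, 0.97 per class II count and 0.52 in CPM, and the genotypes overlapped on all 4 scales. Per 100 B cell marker counts Apoe stood at 3.43 and 4.38 in the Aire-/- libraries, against 6.34 and 3.56 in the Aire+/+ libraries. Cd14, with 0 counts in both Aire-/- libraries, is 0 there on any scale, so its order was fixed in advance. Mrc1 was lower in both Aire-/- libraries on each of these scales, but rests on 2 and 3 counts there. Per 100 B cell marker counts Mrc1 stood at 0.0687 and 0.147 in Aire-/-, against 0.268 and 0.407 in Aire+/+. The part of B cell RNA in these values was not tested.

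**Figure D2:**
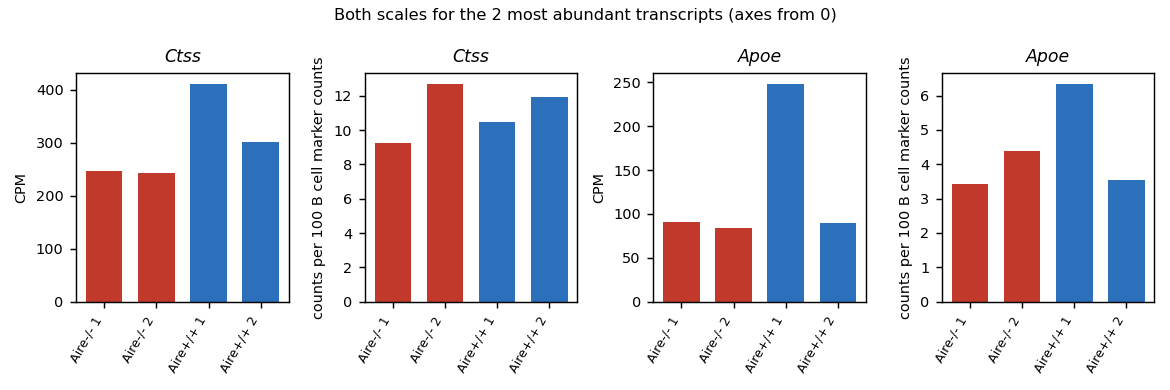
Ctss and Apoe in the Aire-/- libraries (red) and the Aire+/+ libraries (blue), each as CPM and as counts per 100 counts of 10 B cell markers, on axes from 0. For Ctss the Aire-/- libraries are below both Aire+/+ libraries in CPM (247 and 243 against 411 and 301) but at either end of the range per B cell marker count.

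The signalling receptor and the adaptors were lowest in Aire-/- replicate 1. Csf1r, the receptor for CSF1 and interleukin-34, had 1 and 6 counts in the Aire-/- libraries, against 14 and 3 counts in the Aire+/+ libraries. It overlaps Hmgxb3 on the opposite strand, and strand handling is not given, so reads of the pair could be mixed. Tyrobp had 4 and 23 counts in the Aire-/- libraries, against 34 and 18 counts in the Aire+/+ libraries (log2 fold change -0.76, approximate SE 0.66, adjusted p = 0.96, edgeR). Aire-/- replicate 1 alone was low: without it the Tyrobp log2 fold change was 0.01, and without Aire-/- replicate 2 it was -2.52. Fcer1g had 3 and 18 counts in the Aire-/- libraries, against 11 and 7 counts in the Aire+/+ libraries, highest and lowest within Aire-/-. The replicates of Aire-/- differed 6.19-fold for Fcer1g and 5.94-fold for Tyrobp, and 99.3% and 99.4% of tested genes differed less. Fcer1g fell below the filter on low counts, so tested genes are no like background for it.

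Natural killer cell markers did not share 1 order over the libraries. The 9 markers of that list summed to 101 and 225 CPM in the Aire-/- libraries, against 225 and 169 CPM in the Aire+/+ libraries. Perforin (Prf1) had 14 and 87 counts in the Aire-/- libraries, against 30 and 28 counts in the Aire+/+ libraries. Gzma had 48 and 97 counts in Aire-/-, against 202 and 111 counts in Aire+/+ libraries. The lineage receptor Ncr1 had 7 and 21 counts in Aire-/-, against 2 and 6 counts in Aire+/+ libraries, and Klri2 was highest in Aire-/- replicate 1, with 22 and 12 counts in Aire-/-, against 12 and 9 counts in Aire+/+ libraries. Klra8 and Klra4, carried by subsets of these cells, had 0 counts in all 4 libraries. Itga2 had 8 and 7 counts in Aire-/-, against 15 and 23 counts in Aire+/+ libraries. Klrb1c had 4 and 8 counts in Aire-/-, against 17 and 13 counts in Aire+/+ libraries. Of the 9 markers, 3 (Gzma, Itga2 and Klrb1c) were lower in both Aire-/- than in both Aire+/+ libraries. Another 2 (Ncr1 and Klri2) were higher. Among tested genes, 17.3% were lower and 17.1% higher in that way. Ncr1, Klri2, Klrb1c, Klra8 and Klra4 were named after their values were seen. The part of these cells in the adaptor values was not tested.

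Set library against library, the direction of the members depended on the libraries chosen. Between Aire-/- replicate 1 and either Aire+/+ library, 9 of the 10 members were lower in Aire-/-. Between Aire-/- replicate 2 and Aire+/+ replicate 1, 7 were lower, and between Aire-/- replicate 2 and Aire+/+ replicate 2, 5 were lower and 5 higher, where 49.3% to 50.1% of the tested genes were lower in Aire-/- in the 4 pairings. The median difference on the log2(CPM + 2) scale was -1.57 and -0.65 for Aire-/- replicate 1 and -0.77 and 0.17 for Aire-/- replicate 2, each against Aire+/+ replicates 1 and 2. Within Aire-/-, 7 members were lower in replicate 1 and 2 higher, with Cd14 at 0 in both. Within Aire+/+, 9 were higher in replicate 1, Marco being the exception. Differences over 1 on this scale were found for 3 to 7 members between genotypes, for 4 within Aire-/- and for 5 within Aire+/+. They were Lyz2, Tyrobp, Csf1r and Fcer1g within Aire-/-, and Cd14, Lyz2, Apoe, Csf1r and Marco within Aire+/+. Among tested genes the shares were 7.81% to 10.3% between genotypes, 10.3% within Aire-/- and 8.71% within Aire+/+. Csf1r, Fcer1g, Cd68 and Marco fell below the filter, where counting error widens such differences, so these shares are no like background for all 10. Aire+/+ replicate 1 was the highest library for 7 members, where it was so for 25.0% of tested genes, and Aire-/- replicate 1 the lowest for 6, where it was so for 24.6%.

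**Figure D3:**
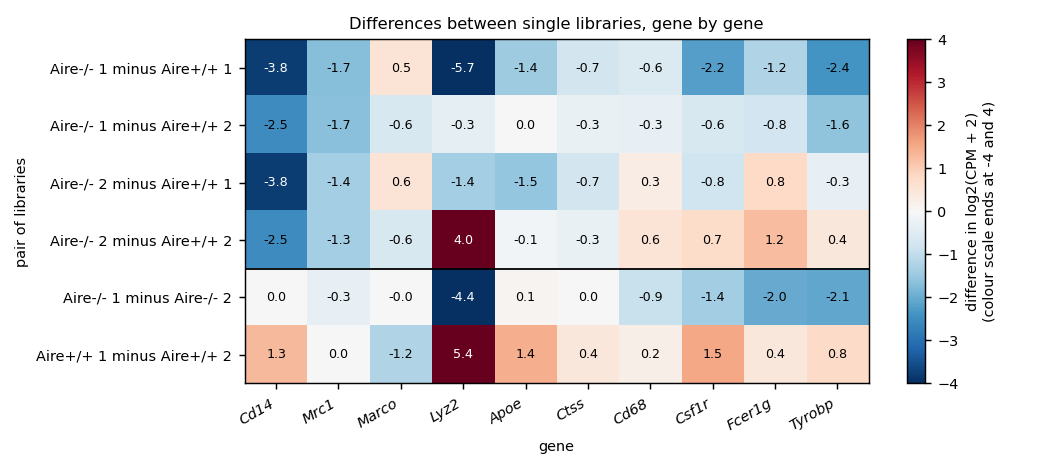
Difference in log2(CPM + 2) between single libraries for each of the 10 genes, blue where the library named first is lower. The 4 upper rows set an Aire-/- against an Aire+/+ library and the 2 lower rows set replicates of 1 genotype, where Lyz2 differs by -4.35 within Aire-/- and by 5.36 within Aire+/+.

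Single libraries decided the Lyz2 call. Lyz2 was called higher in Aire-/- without Aire+/+ replicate 1 (log2 fold change 3.99, adjusted p = 0.031, edgeR), where 0.0511% of all genes were called higher and 0.0409% lower, or 0.092% in all. It was called lower without Aire+/+ replicate 2 (-2.37, adjusted p = 1.1e-06, edgeR), where 0.624% of all genes were called, 0.235% higher and 0.388% lower. Without Aire-/- replicate 1 it stood at -0.41 and without Aire-/- replicate 2 at -6.23, neither called, in fits that called 0.0307% (0.0102% lower) and 0.0102% of all genes (all lower). Such fits leave 1 library in a genotype, so that genotype shows no spread. The approximate SE of Lyz2 was 0.95 without Aire+/+ replicate 1 and 0.37 without Aire+/+ replicate 2, against 1.15 with all 4 libraries. The remaining Aire-/- pair held 1 and 61 counts, so these calls do not reflect the spread of Lyz2 between replicates. Ctss lay between -0.75 and -0.31 and was not called in any of the 4 fits.

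**Figure D4:**
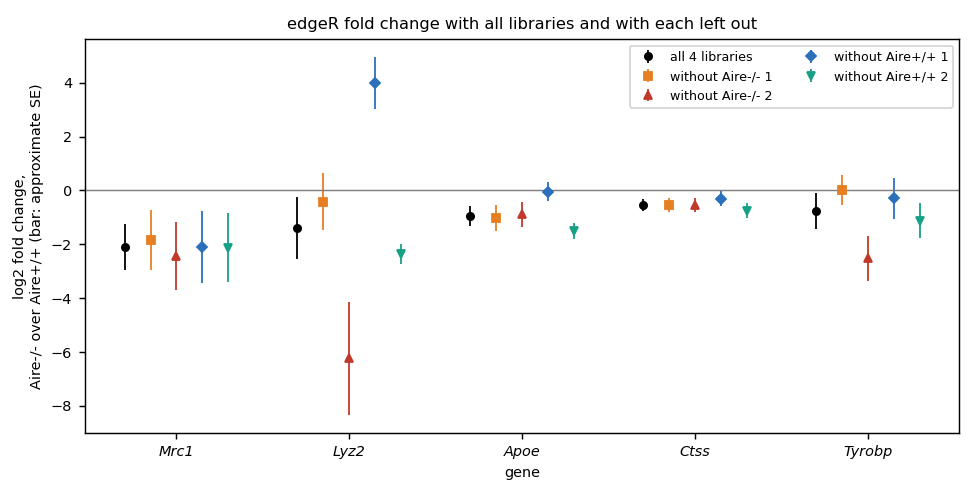
Fitted log2 fold change of Aire-/- over Aire+/+ with its approximate SE for 5 tested genes, with all 4 libraries and with each library left out. Lyz2 spans -6.23 to 3.99 and Mrc1 -2.44 to -1.84, and Cd14 is not drawn because its fitted value rests on libraries at 0.

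Other genes with the same profile over the libraries were sought among all tested genes by the share of summed CPM in each of the 4 libraries, with the summed absolute difference in shares as the measure. Nearest to Lyz2 was Thbs1, which encodes the matrix protein thrombospondin-1, with 1 and 21 counts in the Aire-/- libraries, against 55 and 1 counts in the Aire+/+ libraries. Its shares differed by 8.19 percentage points in sum, where the median gene differed by 100.2, and Fam43a (27.0) and Fam203a (32.3) followed. Nearest to Cd14 were Igj (15.6), the joining chain of antibodies, Zfp28 (21.3) and Bcat1 (25.1), against a median of 102.9. Igj had 0 and 4 counts in the Aire-/- libraries, against 1674 and 827 counts in the Aire+/+ libraries. Nearest to Tyrobp were Ccl4, a chemokine (9.50), D1Ertd622e (9.98) and Zfp763 (10.3), against a median of 47.0. With 4 libraries such likeness describes these samples only.

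Markers of tissue macrophages were uneven, and some were at or near 0. C1qa, C1qb and C1qc, the complement C1q chains, had 0 counts in both Aire-/- libraries, against 1 and 0 counts in the Aire+/+ libraries each. Of 15 alveolar macrophage markers, Ear2 and Cidec had 0 counts in all 4 libraries and 11 had at most 10 counts in any library. Their summed level was 96.8 and 132 CPM in the Aire-/- libraries, against 151 and 109 CPM in the Aire+/+ libraries. Abcg1, a lipid exporter not restricted to macrophages, had the most counts, with 68 and 83 counts in Aire-/-, against 93 and 51 counts in Aire+/+ libraries. Of the 15 alveolar markers 3 were tested, 2 below 0 and 1 above, and 0 were called. Cd9 had the smallest p of these, with 5 and 17 counts in Aire-/-, against 38 and 30 counts in Aire+/+ libraries. Its log2 fold change was -1.45 (approximate SE 0.55, adjusted p = 0.89, edgeR). Of 25 further macrophage and monocyte markers, 10 had at most 10 counts in any library, 8 were tested, 7 lay below 0 and 1 above, and 0 were called, with a median log2 fold change of -0.33. Their summed level was 1134 and 1339 CPM in the Aire-/- libraries, against 1084 and 1042 CPM in the Aire+/+ libraries. Emr1, which encodes F4/80, had 15 and 3 counts in Aire-/-, against 2 and 6 counts in Aire+/+ libraries, Itgam, the integrin CD11b, 28 and 34 counts in Aire-/-, against 32 and 42 counts in Aire+/+ libraries, and Mpeg1, a perforin-like protein of macrophages and B cells, 4 and 4 counts in Aire-/-, against 48 and 10 counts in Aire+/+ libraries. Msr1 had 5 and 12 counts in Aire-/-, against 2 and 2 counts in Aire+/+ libraries. Of these 25 markers, 3 were lower and 2 (Msr1 and Ccr2) higher in both Aire-/- than in both Aire+/+ libraries. Among tested genes, 17.3% were lower and 17.1% higher in that way. Emr1, Itgam, Mpeg1, Msr1 and the C1q and alveolar genes at or near 0 were named after their values were seen. Ccr2, the chemokine receptor of monocytes that γδ T17 cells also carry, made up most of that list, with 906 and 1121 counts in Aire-/-, against 789 and 907 counts in Aire+/+ libraries (0.42, adjusted p = 0.89, edgeR). Cybb, the oxidase subunit of phagocytes and B cells, stood at -0.01, Cx3cr1, the fractalkine receptor, at -0.84, and Clec7a, the β-glucan receptor dectin-1, at -0.43, with adjusted p of 0.94 or more by edgeR.

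**Figure D5:**
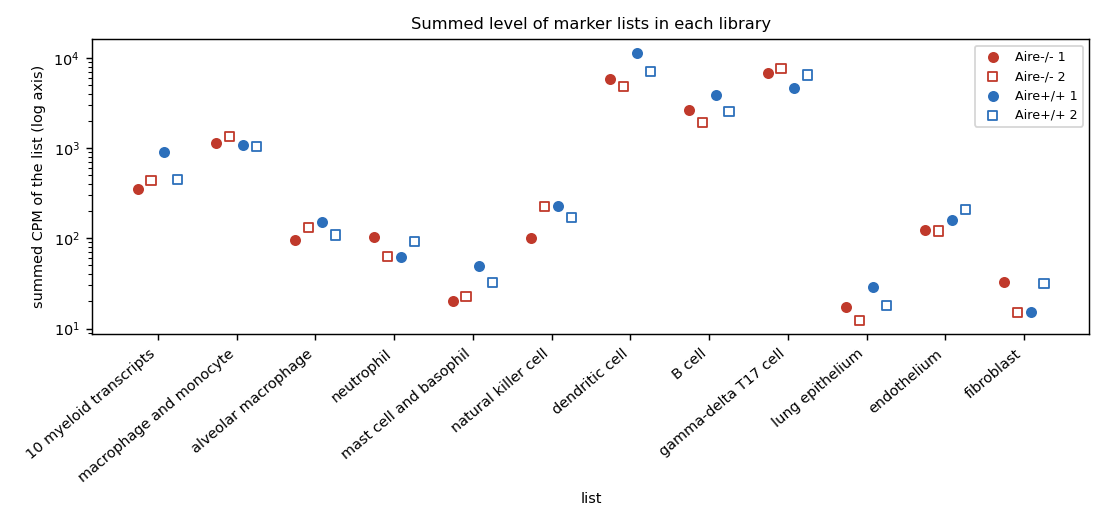
Summed CPM (log axis) of the 10 myeloid transcripts and of marker lists of other cell types in the Aire-/- libraries (red) and the Aire+/+ libraries (blue), filled circles for replicate 1 and open squares for replicate 2. Aire+/+ replicate 1 is the highest for several lists, among them the 10 myeloid transcripts (899 CPM), the dendritic cell list and the B cell list. It is the lowest for the γδ T17 list (4637 CPM). In Aire+/+ replicate 1, the 4 class II genes hold 13780 of the 14061 counts of the dendritic cell list. Of the 13 genes in that list, 4 were lower and 4 higher in both Aire-/- than in both Aire+/+ libraries. Among tested genes, 17.3% were lower and 17.1% higher in that way. The 4 higher genes were Xcr1, Itgax, Clec9a and Zbtb46, named after their values were seen.

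The partners of these receptors showed no call either. In the lipopolysaccharide pathway 9 of 13 genes were tested, 5 below and 4 above 0 (median -0.09). Ly86 (-0.53) and Cd180 (-1.02), a receptor pair also found on B cells, and the adaptor Tirap (-0.65) did not pass, with adjusted p from 0.89 to 0.91 by edgeR. Tlr4 had 5 and 8 counts in Aire-/-, against 5 and 3 counts in Aire+/+ libraries, and Ly96, which encodes MD-2, 1 and 2 counts in Aire-/-, against 12 and 7 counts in Aire+/+ libraries, named after their values were seen. Of 15 partners of the adaptors 4 were tested, all below 0 (median -0.37), where 49.1% of tested genes lay, with Fcgr2b at -0.0007. The kinase Syk led them, with 155 and 113 counts in Aire-/-, against 365 and 226 counts in Aire+/+ libraries (-0.98, approximate SE 0.26, adjusted p = 0.68, edgeR). Syk was called without the filter, where 0.127% of all genes were called lower. Klrk1, the NKG2D receptor, stood at -0.38 and Hcst, its adaptor DAP10, at -0.35. Of the CSF ligands and receptors, Csf2rb (0.20) and Csf3r (0.40) were tested.

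Beside Ctss and Cd68, 17 of 20 lysosomal genes were tested, 10 below and 7 above 0 (median -0.09). Ctsh, a cathepsin, had a log2 fold change of -0.75, Psap, the saposin precursor, one of 0.45, Lipa, the lysosomal acid lipase, one of 0.46 and Ctsd, another cathepsin, one of 0.23, with adjusted p from 0.89 to 0.95 by edgeR. Beside Apoe, 7 of 12 lipid transport genes were tested, 4 below and 3 above 0 (median -0.46). The fatty acid receptor Cd36 had 17 and 7 counts in Aire-/-, against 34 and 31 counts in Aire+/+ libraries (-1.27, approximate SE 0.51, adjusted p = 0.89, edgeR), and Lpl (-0.91), Apobec1 (-0.62) and the exporter Abca1 (0.26) did not pass. None of the genes in these lists was called over all genes in this fit.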

How the data were processed

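The deposited file gives unnormalized counts (whole numbers) for gene symbols, the authors' columns being the 4 libraries. TopHat2 2.0.10, Cufflinks 2.2.1 and mm10 are named, without role, per the submitters' processing notes. None of counting tool, annotation, strand setting and treatment of duplicates and shared reads was given in the sources used here. Reads of Smart-Seq2 carry no molecular identifiers, so intervals and the limit of 3 counts for a count of 0 cover counting error only.

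Counts of all 4 libraries were fitted in R 4.3.3 by edgeR 4.0.16, with DESeq2 1.42.0 and limma 3.58.1 for alternatives: filterByExpr (minimum count 10, minimum total 15; 9783 of 22865 genes), TMM, quasi-likelihood F test on genotype and Benjamini-Hochberg adjustment at 0.05. Library sizes are the counts in tested genes, and CPM uses them times the TMM factors. The SE is the absolute log2 fold change over the square root of F, an approximation. Library pairs used log2(CPM + 2). The members and lists were chosen with earlier results of these data known. Named genes are the members, Lyz1 and the 3 nearest in profile to Lyz2, Cd14 and Tyrobp. Others come from ranks within lists. The ranks are up to 4 tested genes of smallest p in each myeloid or pathway list and up to 2 in the others. They also hold the 2 of highest CPM in each list. Not every gene of these ranks is named. Markers named because they were at or near 0 were picked after their values were seen. So were Tlr4, Ly96, Emr1, Itgam, Mpeg1, Msr1, Ncr1, Klri2, Klrb1c, Xcr1, Itgax, Clec9a and Zbtb46. The genes of the closing observations outside these ranks were picked in the same way. Lengths came from GENCODE M21. Calculations used Python 3.11.15, pandas 2.3.3, numpy 2.4.6, scipy 1.17.1, Biopython 1.88 and matplotlib 3.10.9.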

Additional observations from a re-analysis of the deposited data

How the results depend on the processing

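Among the 6 tested members, 2 fold changes turned in direction, each when a single library was left out: Lyz2, which ranged from -6.23 to 3.99, turned without Aire+/+ replicate 1, and Tyrobp, which ranged from -2.52 to 0.012, without Aire-/- replicate 1. Of the 4 untested members, ratios of mean CPM crossed 1 for Csf1r (0.47, and 1.28 without Aire+/+ replicate 1), Fcer1g (1.33, and 0.37 without Aire-/- replicate 2) and Cd68 (1.05, and 0.63 without Aire-/- replicate 2 or 0.94 without Aire+/+ replicate 2). No member was called with DESeq2 size factors, upper-quartile factors, DESeq2's Wald test, limma-voom, a stricter filter or an adjusted p of 0.1, and Cd14 was dropped by the stricter filter. Without a filter 2 members were called, Cd14 and Lyz2, among 47 genes in all and 9 of the other lists. Leaving out single libraries gave 0 to 3 called members, 1 to 61 called genes, 0 to 8 called genes of the other lists, a median log2 fold change from -2.48 to -0.30 and a summed ratio from 0.44 to 0.89, against 0, 2, 0, -1.17 and 0.59 with all libraries. Limma-voom called 1 gene, not a member. The replicate numbers were added as a replicate block, giving 6 called genes, 0 members and 1 gene of the other lists, Cd74. Deviations of same-numbered libraries correlated at -0.08 across 9783 genes, which cannot exclude a shared preparation. The labels do not say whether libraries of the same number were paired. The summed ratio without Ctss and Apoe was 0.44, an alternative chosen after seeing the data, as were the scales for Ctss, at 0.98 per B cell marker count, 0.56 per CD3 chain count and 1.20 per class II count against 0.69 in CPM, and for Apoe, at 0.79, 0.40 and 0.97 on those scales against 0.52. At this depth 5 of the 10 genes stayed under 20 counts in every library, and their order over the libraries is limited by counting error.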

Other observations

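Further genes of myeloid and other cells were uneven over the libraries, and those given here were named after their values were seen. Clec4e, the receptor Mincle, had 5 and 3 counts in the Aire-/- libraries, against 22 and 1 counts in the Aire+/+ libraries, high where Lyz2 was highest. Of 7 endothelial markers, Cldn5 and Kdr were highest in Aire+/+ replicate 2, while Pecam1 was highest in Aire+/+ replicate 1, Vwf in Aire-/- replicate 2, and Egfl7 had 1 and 1 counts in Aire-/-, against 9 and 9 counts in Aire+/+ libraries. Cldn5 had 3 and 3 counts in the Aire-/- libraries, against 6 and 50 counts in the Aire+/+ libraries, and Kdr had 1 and 4 counts in the Aire-/- libraries, against 1 and 23 counts in the Aire+/+ libraries. Mmp8, a collagenase of neutrophils, had 0 counts in both Aire-/- libraries, against 13 and 8 counts in the Aire+/+ libraries, while S100a8 and S100a9, abundant neutrophil transcripts, had 2 and 0 counts each in the Aire-/- libraries, against 0 in both Aire+/+ libraries. Hdc, the histidine decarboxylase of mast cells and basophils, had 1 and 6 counts in the Aire-/- libraries, against 25 and 10 counts in the Aire+/+ libraries. Kit had 9 and 6 against 10 and 6, and Ms4a2 7 and 2 against 6 and 2, in the same order. Of the 10 markers of that list, 5 were lower and 0 higher in both Aire-/- than in both Aire+/+ libraries. Among tested genes, 17.3% were lower and 17.1% higher in that way, but 9 of the 10 had at most 10 counts in any library. None of these genes but Pecam1 passed the filter on low counts. With no filter Mpeg1 and Cldn5 were called, both lower in Aire-/-, where 0.127% of all genes were called lower. Their Aire+/+ replicates differed widely, with 48 and 10 counts for Mpeg1 and 6 and 50 counts for Cldn5.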
